A study of Mus musculus with 19 samples.

Results

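Binding of the coactivator YAP and of its DNA-binding partner TEAD was examined at 33 genes of glucose and lipid metabolism in mouse liver. The genes were picked by name, a choice that was not blind to these data, and 32 of them had a gene model among the 22380 protein-coding genes of the GENCODE annotation of mm9 (NCBIM37). The remaining gene, Hmgcs1, was not analysed here, because its RefSeq promoter sequence matched 0 places on the assembled chromosomes and 2 on unplaced sequences. A gene was counted as having a peak when a peak overlapped its body or the 10 kb on either side by at least 1 bp, and as having a promoter peak when a peak touched the stretch between 2000 bp before and 1000 bp after an annotated start.

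Chromatin immunoprecipitation and sequencing (ChIP-seq) had been done on livers of C57BL/6 mice. The transgenic mice (ROSA26-rtTA-IRES-EGFP; tetYAP) ate doxycycline food for 3 or 7 days, and the controls without the YAP transgene (ROSA26-rtTA-IRES-EGFP; WT, here WT) ate it for 7 days, so all groups received the drug. Per the study, the mice also carried Cre under the promoter of albumin, a gene of hepatocytes, the transgene encodes a constitutively active YAP mutant, and the TEAD antibody also recognises TEAD1 and TEAD3. The 19 samples, 3 per group and 4 for TEAD at 7 days, had been merged into 6 peak lists before peaks were called. No replicate spread, and hence no test between conditions, can be had from these lists.

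YAP does not bind DNA itself. When the Hippo kinases are inactive it enters the nucleus and binds TEAD proteins, which recognise short sites containing GGAATG. The liver makes glucose in fasting and stores it as glycogen after a meal, and it synthesises, esterifies, exports and oxidises fatty acids. Hormones and nutrients set these pathways in large part through transcription factors and coactivators such as PGC-1alpha (Ppargc1a), ChREBP (Mlxipl) and the SREBPs (Srebf1 and Srebf2), which are themselves among the genes examined.

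The sites at which YAP was called near these genes carry the central observation, so the genomic sequence around their summits is given first, read from NCBIM37 on the plus strand. Capitals mark GGAATG, or its first 5 letters GGAAT where the sixth letter differs, on either strand (CATTCC and ATTCC on the plus strand). The windows span 61 bp centred on the summit, and 161 bp at G6pc and Pcx, where the nearest full GGAATG of the called peak lay farther out.
Srebf2, YAP, 7 d, chr15:81974683-81974743, plus strand: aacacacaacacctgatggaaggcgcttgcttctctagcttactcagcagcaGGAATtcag
Mlxipl, YAP, 7 d, chr5:135577001-135577061, plus strand: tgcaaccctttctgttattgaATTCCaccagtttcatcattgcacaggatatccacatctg
G6pc, YAP, 7 d, chr11:101240648-101240808, plus strand: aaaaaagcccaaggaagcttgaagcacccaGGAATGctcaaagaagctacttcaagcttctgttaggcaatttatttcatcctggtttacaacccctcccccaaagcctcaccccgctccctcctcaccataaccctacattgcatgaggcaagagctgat
Pcx, YAP, 7 d, chr19:4592182-4592342, plus strand: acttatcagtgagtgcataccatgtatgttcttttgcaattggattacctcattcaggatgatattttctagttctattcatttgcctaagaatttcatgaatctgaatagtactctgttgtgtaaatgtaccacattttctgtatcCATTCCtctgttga
Pck1, YAP, 7 d, chr2:172985011-172985071, plus strand: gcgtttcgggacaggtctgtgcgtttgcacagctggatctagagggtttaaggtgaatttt
The full letters GGAATG stood inside the called YAP peak at G6pc, the nearest copy 47 bp from the summit, and at Pcx, 70 bp from the summit. The peaks at Srebf2, Mlxipl and Pck1 held none, although Srebf2 and Mlxipl had the shorter GGAAT within the printed window. For comparison, the next 4 sequences surround the summits of the strongest TEAD peaks at 7 d that carried no YAP peak.
Dgat2, TEAD, 7 d, chr7:106310266-106310326, plus strand: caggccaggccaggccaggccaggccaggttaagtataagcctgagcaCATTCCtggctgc
Gpam, TEAD, 7 d, chr19:55185228-55185288, plus strand: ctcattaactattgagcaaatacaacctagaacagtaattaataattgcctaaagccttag
Srebf1, TEAD, 7 d, chr11:60043470-60043530, plus strand: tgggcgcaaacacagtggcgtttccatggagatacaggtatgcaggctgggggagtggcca
Fabp1, TEAD, 7 d, chr6:71139649-71139709, plus strand: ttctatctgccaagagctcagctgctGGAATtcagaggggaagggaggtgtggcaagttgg
Of these, only Dgat2 had GGAATG within the 61 bp. The larger called peak at Gpam held 4 copies, the nearest 41 bp from the summit, and those at Srebf1 and Fabp1 held none.

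YAP was not called near any of the 32 genes in WT livers or after 3 d, and was called near 5 of them after 7 d. In WT livers 0 of 32 genes had a YAP peak within 10 kb, against 0.116% of the 22348 other protein-coding genes, and the 95% Wilson interval of this 0% reached 10.7%. At 3 d the count was again 0 of 32, against 0.161% of the others. At 7 d the 5 genes were 15.6% (interval 6.86 to 31.8) of the members and the background was 4.78%. This excess rested on the flanks: within the gene bodies alone, 1 member (3.12%, Pcx) and 2.93% of the others had a YAP peak. A single gene, Pcx, had a YAP promoter peak at 7 d (3.12% of members, background 1.03%), which was lost when the summit had to lie in the promoter (0 members, 0.993% of others), and no member had one in WT livers (background 0.0358%) or at 3 d (background 0.0716%). The YAP lists held 156, 110 and 1478 peaks from 54661175, 36221830 and 34260362 tags, so the list with the most peaks had the fewest tags. These intervals cover counting error over genes only.

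TEAD was already present near more than 1 in every 2 of the genes without the transgene. In WT livers 18 of 32 genes (56.2%) had a TEAD peak within 10 kb, against 20.1% of the others. At 3 d all 32 had one (100%, background 58.7%), and at 7 d 31 did (96.9%, background 59.6%), Me1 being the exception. Promoter peaks were called at 8 genes in WT livers (25%, background 8.70%), at 29 at 3 d (90.6%, background 38.8%) and at 26 at 7 d (81.2%, background 37.5%). The members were longer than other genes, with a median of 30974 bp against 15382 bp, and longer genes offer more room for a peak. Weighted to the members' length classes, the share of other genes with a TEAD peak within 10 kb was 25.1%, 67.9% and 69.1% in the 3 lists, and with a YAP peak at 7 d 6.66%, still below the members' shares. For promoters the weighted shares were 10.4% in WT livers and 43.7% at 7 d for TEAD, and 1.26% for YAP at 7 d.

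**Figure D1:**
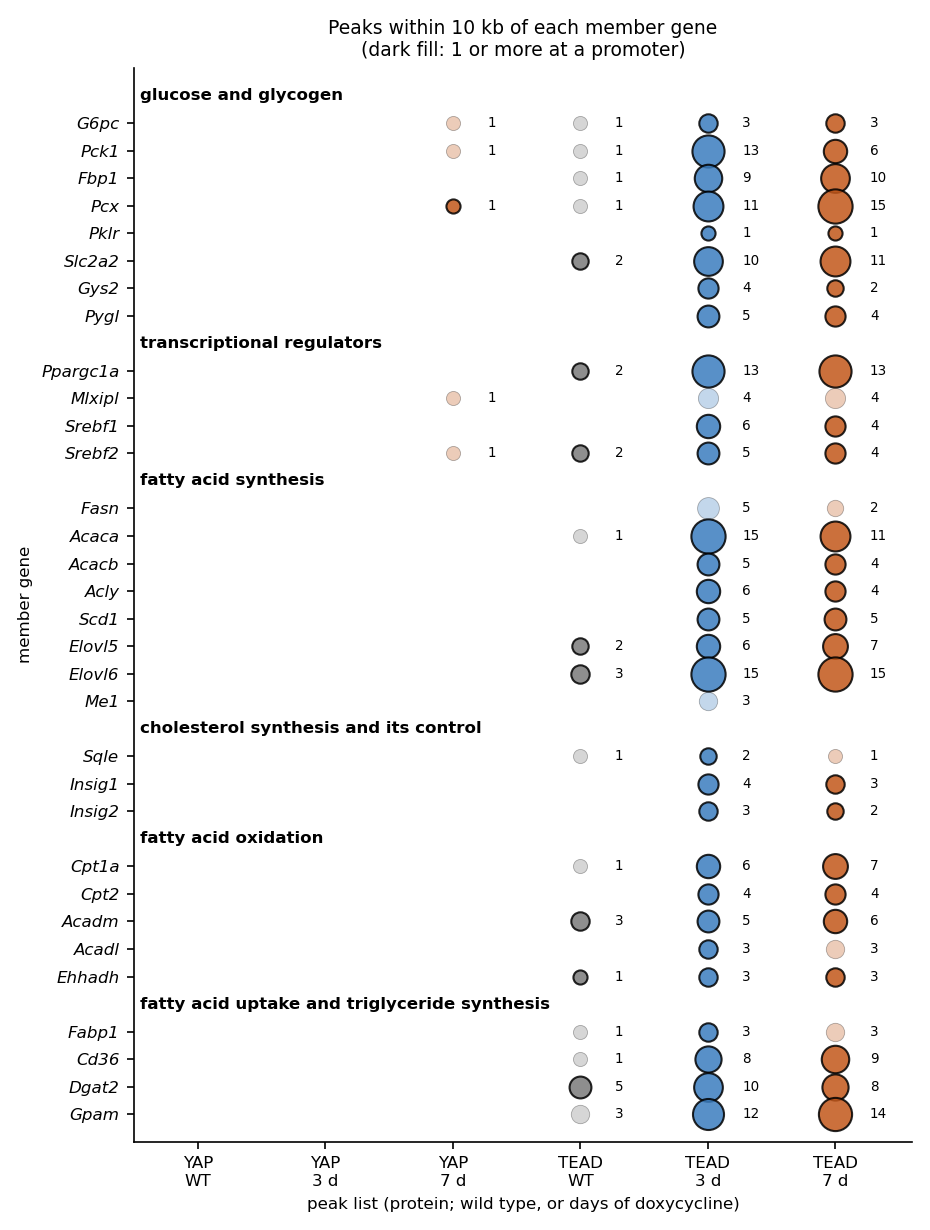
Number of peaks within 10 kb of each of the 32 member genes (rows, by function) in the 6 peak lists (columns). Circle area and the printed number give the peak count, dark fill marks genes with a promoter peak, and an empty place means no peak: YAP circles appear only in the 7 d column, at G6pc, Pck1, Pcx, Mlxipl and Srebf2.

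The growth of the TEAD counts with induction went with longer lists. The TEAD lists held 5695, 36446 and 38984 peaks, from 35168765, 55032002 and 38523843 tags, and were called with fragment lengths of 400, 207 and 206 bp. When each list was cut to its 5695 strongest peaks by −log10 p-value, members with a peak within 10 kb numbered 18 in WT livers, 19 at 3 d, then 17 at 7 d, and those with a promoter peak 8, 6 and 6. The other protein-coding genes with a peak within 10 kb were then 20.1%, 19.7% and 18.1%, and those with a promoter peak 8.70%, 7.71% and 5.93%. In all 3 shortened lists the same 15 members were found, and Mlxipl and Srebf1 were found at 3 d and 7 d without WT. A cut to equal length cannot show a growth in the number of called peaks. The parts of depth, fragment length and induction in the longer full lists cannot be told apart here. The same holds wherever an enrichment of WT livers is given beside those at 3 d and 7 d.

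**Figure D2:**
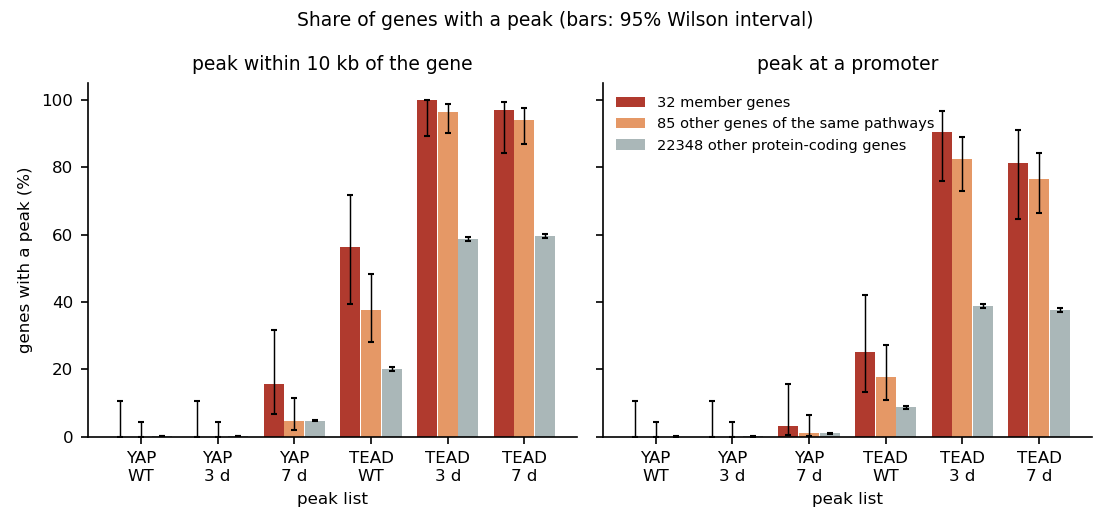
Share of genes (%) with a peak within 10 kb (left) and at a promoter (right) in each list, for the members, 85 other genes of the same pathways and all other protein-coding genes. Bars carry 95% Wilson intervals: at 7 d TEAD was near 96.9% of members, 94.1% of the other pathway genes and 59.6% of all other protein-coding genes. The last set includes the 85 other pathway genes.

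The 5 YAP sites belonged to 3 genes of glucose production and 2 transcriptional regulators. None was in the top 10% of the YAP list at 7 d, none overlapped a YAP peak of WT livers or of 3 d, and each overlapped TEAD peaks of both induced lists. The highest was at Srebf2, which encodes the SREBP isoform that activates cholesterol synthesis genes: a peak at chr15:81974614-81974922, 2983 bp upstream of the start, with a fold enrichment (pileup over local background) of 7.11 and a −log10 p-value of 18.73, rank 347 of 1478. TEAD enrichment at this site was 3.66 in WT livers, 13.38 at 3 d, then 21.26 at 7 d. The YAP peak of Mlxipl, the gene of the glucose-responsive factor ChREBP, lay at chr5:135576875-135577177, 5730 bp upstream of the nearest start, with an enrichment of 6.57 (−log10 p-value 15.84, rank 504). TEAD was not called there in WT livers and stood at 14.72 at 3 d and 19.85 at 7 d. At both sites YAP was called only at 7 d, and TEAD also at 3 d and, at Srebf2, in WT livers. The YAP list at 3 d held only 110 peaks, so no order of binding can be read from these calls.

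G6pc, encoding the phosphatase that releases free glucose from hepatocytes, had its YAP peak past the 3′ end of the gene, at chr11:101240592-101240932, 11853 bp from the start (enrichment 6.08, −log10 p-value 14.07, rank 640). The same site was the strongest TEAD site of all members by enrichment, 9.97 in WT livers, 26.76 at 3 d, then 37.47 at 7 d. At Pck1, encoding the cytosolic carboxykinase of gluconeogenesis, the YAP peak likewise lay just downstream of the gene, at chr2:172984838-172985123, 6458 bp from the nearest start. It was the weakest of the 5, with an enrichment of 5.02, a −log10 p-value of 9.83 and rank 1157. TEAD enrichment there was 7.84 without the transgene, 16.09 at 3 d and 20.74 at 7 d. These 2 sites and that of Srebf2 were TEAD sites of WT livers.

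Pcx encodes pyruvate carboxylase, which supplies oxaloacetate for gluconeogenesis and for the citrate used in lipid synthesis. Its YAP peak lay in an intron at chr19:4592172-4592458, with the summit 2057 bp upstream of an internal start, so that the peak only touched the edge of the promoter interval (enrichment 5.46, −log10 p-value 11.33, rank 940). TEAD was not called at this site in WT livers, had an enrichment of 5.42 at 3 d, and had one of 29.93 at 7 d. This log2 ratio of 2.47, or 5.52-fold, was the highest of the 144 sites near members called at both times. Of the 27104 such sites in the genome, 56 (0.207%) had a higher ratio. The other 4 YAP sites had ratios of 0.67 at Srebf2, 0.49 at G6pc, 0.43 at Mlxipl and 0.37 at Pck1, inside the interquartile range of member sites (0.15 to 0.67) or at its upper edge.

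Among the 8 genes of glucose and glycogen metabolism, TEAD was called within 10 kb of 5 in WT livers and of all 8 at both 3 d and 7 d, in each case also at a promoter of all 8 once YAP was induced. Slc2a2, the glucose transporter of hepatocytes, was the only gene of this group with a promoter peak in WT livers. Its strongest peak lay at an internal start in all 3 lists, with enrichments of 5.45, 15.92 and 25.45. Fbp1, encoding fructose-1,6-bisphosphatase of gluconeogenesis, had strongest peaks by −log10 p-value of 4.35, 10.62 and 19.71, not all at the same site. By enrichment, the site of WT livers and 3 d was higher at 7 d, at 20.5. Pklr, the glycolytic pyruvate kinase of liver, had 1 TEAD peak at 3 d (5.01) and 1 at 7 d (8.95), both within 100 bp of a start, and none in WT livers. Pygl, the glycogen phosphorylase, was at 7.51 and 14.91, again at a start. Gys2, the glycogen synthase of liver, stood apart with a lower value at 7 d (7.02) than at 3 d (8.79). Pcx had 15 TEAD peaks at 7 d, as many as Elovl6 and more than any other member.

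All 4 transcriptional regulators had TEAD peaks at 3 d and 7 d, and Ppargc1a and Srebf2 had promoter peaks already in WT livers. That of Ppargc1a only touched the edge of a promoter interval, with its summit 1368 bp downstream of an internal start. It was weak, with an enrichment of 3.59 and rank 5508 of 5695. Ppargc1a, whose product coactivates gluconeogenic and oxidative genes, had 13 TEAD peaks at both times. Its strongest enrichments were 3.72 in WT livers, 13.79 at 3 d, then 23.56 at 7 d, not all at the same site. The site of WT livers stood at 5.91 at 3 d and 7.54 at 7 d. Srebf1 encodes the SREBP isoforms that activate fatty acid synthesis genes. It had no TEAD peak in WT livers, and a site at chr11:60043282-60043767, 7417 bp upstream of the nearest start, was at 14.45 at 3 d and 32.05 at 7 d. That site ranked 1195 in the list at 7 d, whereas the gene's 3 promoter peaks of that list did not exceed an enrichment of 5.89. Mlxipl had no promoter peak in any TEAD list, its 4 TEAD peaks at 7 d lying from 5739 bp upstream to 11997 bp downstream of the nearest start.

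Fatty acid synthesis genes were divided. Of 8, TEAD was called near 3 in WT livers (Acaca, Elovl5 and Elovl6), 8 at 3 d and 7 at 7 d. Acaca, encoding the cytosolic acetyl-CoA carboxylase that commits carbon to fatty acids, had its strongest site in an intron, 2750 bp from an internal start at 7 d, at 5.52, 21.47 and 28.70 in the 3 lists. Elovl5, an elongase of polyunsaturated fatty acids, had a promoter site 98 bp upstream of a start with 3.90, 16.09 and 26.86. The elongase Elovl6 had 15 peaks at both 3 d and 7 d. In contrast, Fasn, the fatty acid synthase itself, had no TEAD peak in WT livers and no promoter peak in any list, and its strongest value was 8.38 at 3 d and 9.07 at 7 d. Me1, the malic enzyme that supplies NADPH, had 3 weak intronic peaks at 3 d, the strongest at 5.25 (rank 20644), and none at 7 d. Acacb, the mitochondrial isoform of acetyl-CoA carboxylase, was at 7.01 and 7.47, at different sites. Acly, which makes cytosolic acetyl-CoA from citrate, was at 7.86 and 13.66. At the promoter of Scd1, the stearoyl-CoA desaturase, TEAD enrichment was lower at 7 d (3.47) than at 3 d (6.07), the lowest log2 ratio of all member sites (−0.81). No gene of this group had a YAP peak within 10 kb.

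The 3 cholesterol genes with a gene model had few sites, 9 in all. Sqle, the squalene epoxidase, had an intronic peak at 4.27, 9.74 and 15.27, and its weak promoter peak of 3 d (3.94) was not called at 7 d. Insig1 and Insig2, whose products hold the SREBPs in the endoplasmic reticulum, had no TEAD peak in WT livers. Insig1 was highest at its promoter, with 8.64 at 3 d and 11.29 at 7 d, whereas Insig2 reached 7.44 and 7.15. The values of Insig2 came from different sites. Its promoter site rose from 5.31 to 7.15, and its upstream site fell from 7.44 to 5.84.

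The genes of fatty acid oxidation had lower TEAD peaks than the members as a whole, with a median strongest enrichment of 10.6 at 7 d against 19.7. Over other protein-coding genes with a peak this median was 10.5. Acadm, the medium-chain acyl-CoA dehydrogenase, had 3 peaks in WT livers, of which 2 were at promoters and 1 overlapped the promoter of its neighbour Rabggtb. Its strongest values were 5.32, 13.13 and 16.02, that of WT livers at a different site from those at 3 d and 7 d. Ehhadh, the peroxisomal bifunctional enzyme, had a promoter site with 4.25, 9.52 and 10.60. Cpt1a, the carnitine transferase that controls entry of fatty acids into mitochondria, had strongest peaks by −log10 p-value of 4.72, 11.08 and 13.38. Its peak in WT livers lay at a different site from those at 3 d and 7 d. That site stood at 10.13 at 3 d and 14.1 at 7 d. Cpt2, the second carnitine transferase, and Acadl, the long-chain dehydrogenase, had none in WT livers and stayed at 7.37 or below at both times. The 15 sites of this group that were called at both times were all higher at 7 d, by a median log2 ratio of 0.29.

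The 4 genes of fatty acid uptake and triglyceride synthesis all had TEAD peaks in WT livers, and together they held 10 of the 31 sites that were called in all 3 TEAD lists. Dgat2, which completes triglyceride synthesis, had 5 peaks in WT livers, the most of any member. Its intronic site at chr7:106309791-106310684 was at 7.39, 17.15 and 32.05 and had the highest −log10 p-value of all member peaks at 7 d, 187.46. Gpam encodes the mitochondrial acyltransferase that starts glycerolipid synthesis, and an intronic site at chr19:55184570-55185750 had 7.12, 20.52 and 29.48. Fabp1, the fatty acid-binding protein of liver, had a site about 10 kb upstream with 7.41, 17.68 and 26.39. The peak reached into its window while the summit, 10142 bp from the start, lay just outside. Cd36, a fatty acid translocase, was at 5.46, 16.42 and 24.51, at different intronic sites in WT and induced livers. None of the 4 genes had a YAP peak.

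**Figure D3:**
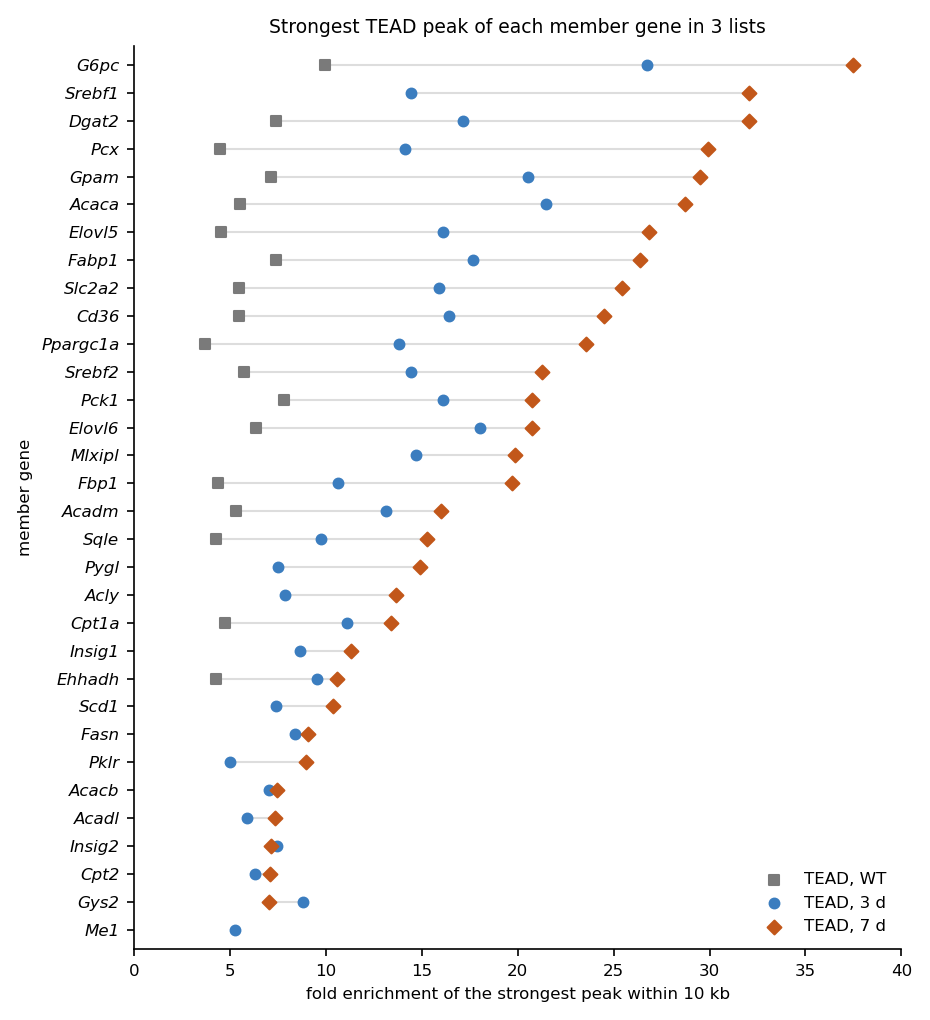
Fold enrichment of the strongest TEAD peak, by −log10 p-value, within 10 kb of each member gene in WT livers (squares), at 3 d (circles) and at 7 d (diamonds), in order of the value at 7 d. G6pc reached 37.47 at 7 d, 29 members were higher at 7 d than at 3 d, Gys2 and Insig2 were lower, and Me1 had no peak at 7 d. The strongest peak of a member was not always at the same site in the 3 lists, for example at Insig2. The WT list was called with a longer fragment length than the others.

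Within its list, the strongest TEAD peak of a member had a median percentile of 60.4 in WT livers, 90.7 at 3 d, then 90.4 at 7 d, and that of other protein-coding genes with a peak 55.7, 73.1 and 70.6. Percentiles of lists of such unequal length cannot be set against each other, and the downstream site of G6pc, for example, had ranks of 369, 471 and 741. The strongest peak stood in the top 10% of its list for 17 among 32 members at 3 d. At 7 d this held for 16 among 31, and without the transgene for 1 among 18. Among other coding genes with a peak the shares were 22.7%, 22.1% and 13.1%, in that order. Members also had more TEAD peaks per gene, with medians of 5 at 3 d and 4 at 7 d against 1 for other coding genes. No comparison was matched on peak number, so its part in these percentiles was not tested. Over all peaks in member windows the median enrichment was close to that of the whole list, with 4.83 against 5.05 in WT livers, 5.42 against 5.44 at 3 d and 7.30 against 7.30 at 7 d. In number, member windows held 1.38, 8.95 and 8.12 TEAD peaks per 100 kb against 0.414, 2.66 and 2.75 for other coding genes, and windows of 85 other genes of the same pathways held 1.03, 7.96 and 7.50.

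The TEAD peaks near members joined into 237 sites, none of them shared by 2 members. Of these, 31 (13.1%) were called in all 3 lists, 113 (47.7%) at 3 d and 7 d, 57 (24.1%) at 3 d only and 36 (15.2%) at 7 d only. All 32 TEAD peaks of WT livers near members overlapped a TEAD peak at both later times. Genome-wide, the shares were 11.4%, 46.1%, 18.2% and 23.7%, so that sites called at 3 d only outnumbered those called at 7 d only near members, and the reverse held over the whole genome. The sites called at 1 time only had median enrichments of 4.10 for 3 d only and 5.90 for 7 d only. These were somewhat below the 113 sites called at 3 d and 7 d but not in WT livers, with medians of 5.77 and 7.37. Sites called in all 3 lists had a median of 17.4 at 7 d. Accordingly, the 188 TEAD peaks at 7 d near members overlapped a TEAD peak of WT livers in 17.0% (interval 12.3 to 23.0), and 14.1% of all peaks at 7 d did.

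At the 144 sites called at both times the median log2 ratio of enrichment, 7 d to 3 d, was 0.45 (interval of the median 0.36 to 0.52), with 122 sites higher at 7 d. Over all 27104 sites the median was 0.42 and 84.7% were higher, the same percentage as near members. The ratios by group ran from a median of 0.29 for fatty acid oxidation to 0.55 for glucose and glycogen. Ratios above 1 were found at 9.03% of member sites and at 11.8% of all sites. Genome-wide, the 1269 YAP-bound sites had a median ratio of 0.75, and the 5 such sites near members had one of 0.49, above which only Pcx and Srebf2 lay. Computed from the pileup scaled to the tag number of each list, the median near members was 0.43. The lists differed in depth, whose part in the ratios was not tested further.

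**Figure D4:**
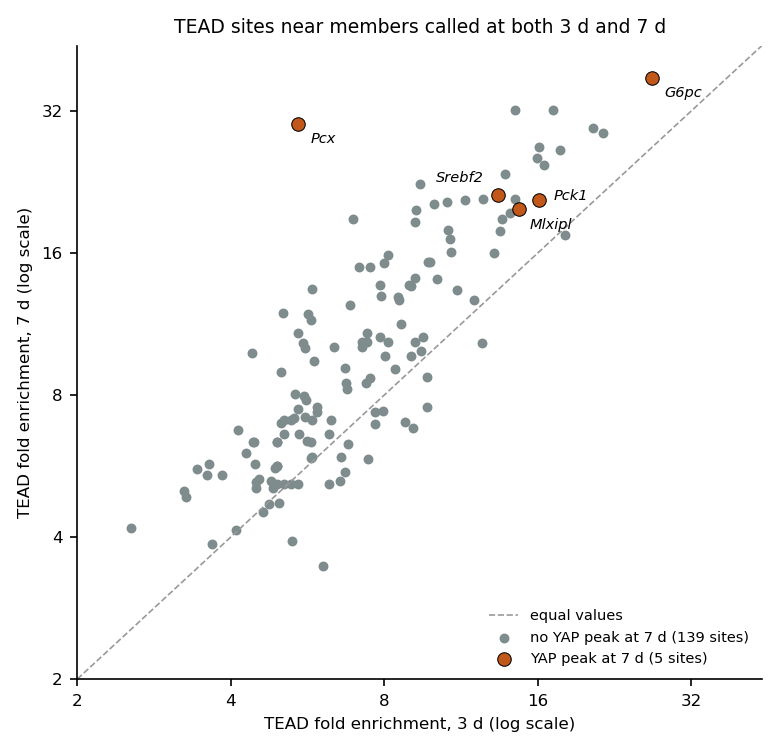
TEAD fold enrichment at 3 d (x axis) and 7 d (y axis), both on log scales, at the 144 sites near members called at both times, with the 5 sites that carried a YAP peak at 7 d enlarged and named. Most points lie above the dashed line of equal values, and the Pcx site, 5.42 at 3 d and 29.93 at 7 d, lies farthest from it.

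Most TEAD peaks near members lay away from starts, as they did near other genes. Of the 188 peaks at 7 d, 43 had their summit in a promoter interval, 97 in an intron, 1 in an exon, 24 upstream and 23 downstream, and 36 (19.1%) lay within 1 kb of a start. In windows of other coding genes 27.9% of summits were in a promoter interval and 24.6% within 1 kb, against 22.9% in a promoter interval near members. A promoter of another coding gene was overlapped by 9 of them, which then cannot be assigned to the member alone. Of the 5 YAP summits, 2 were upstream, 2 downstream and 1 in an intron, and none stood inside a promoter interval. YAP was called at 2.66% of the TEAD peaks near members (interval 1.14 to 6.07) and at 3.58% of all TEAD peaks at 7 d. TEAD enrichment at the YAP-bound peaks had a median of 21.3 near members and 30.1 over the genome.

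**Figure D5:**
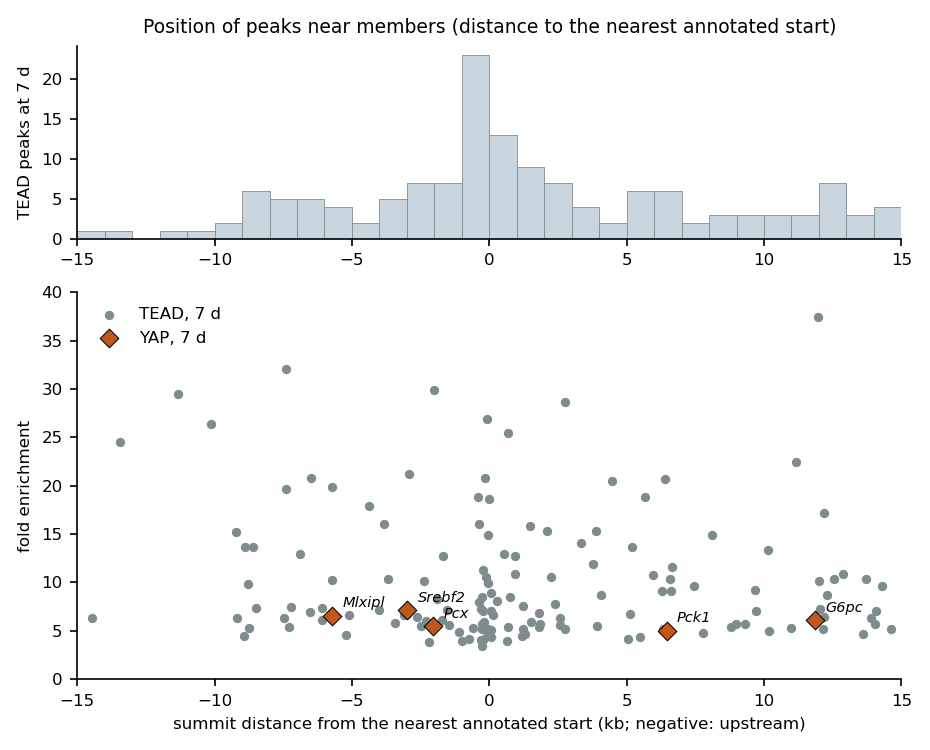
Distance of TEAD summits at 7 d near members from the nearest annotated start, as counts per 1 kb (top) and against fold enrichment (bottom), with the 5 YAP peaks at 7 d as named diamonds. Fixation differed between YAP and TEAD, so their heights on the shared axis are not compared. Negative values are upstream, and the 43 TEAD peaks farther than 15 kb are not drawn: the counts are highest next to the start, and the highest enrichment, 37.47 at G6pc, lies 11958 bp downstream.

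The letters GGAATG, on either strand, were found within 100 bp of the summit in 57 of the 188 TEAD peaks at 7 d near members (30.3%, interval 24.2 to 37.2) and in 35.2% of all TEAD peaks at 7 d on numbered chromosomes and X. For TEAD in WT livers the letters were in 16 of 32 peaks near members and in 48.6% of all. Of the YAP peaks near members 2 of 5 had the letters, against 59.0% of all YAP peaks at 7 d. Letters typical of other liver factors were sparse in both sets. CAAAGTCCA, a form of the HNF4 site, was in 1.60% of TEAD peaks at 7 d near members and 1.69% of all, TGTTTAC (FOXA) in 6.91% and 5.76%, the E-box CACGTG in 5.32% and 4.42%, and TCACNCCAC, a form of the SREBP response element, in 3 peaks (1.60%) and 0.783%. The intervals of these member shares at 7 d, within 100 bp of the summit, included the genome-wide value for each of the 5 motifs. This did not hold in every list and window, since TCACNCCAC was in 2 of 32 TEAD peaks of WT livers near members (6.25%, interval 1.73 to 20.1, all peaks 0.739%), and GGAATG over whole peaks at 3 d was in 32.4% near members (interval 26.4 to 39.0) and 39.5% of all.

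Genes of the same pathways that were not among the 33 had TEAD shares between those of the members and those of other coding genes. Of 85 such genes, chosen by function, 37.6% had a TEAD peak within 10 kb in WT livers, 96.5% at 3 d, then 94.1% at 7 d, and 17.6%, 82.4% and 76.5% had a promoter peak. YAP was called near 4 of them at 7 d (4.71%), close to the background, and near none in WT livers or at 3 d. Among them were Hsd17b7, an enzyme of cholesterol synthesis (enrichment 9.17, rank 140), the acetyl-CoA synthetase gene Acss2 (4.88) and Etfb, a subunit of the electron transfer flavoprotein (5.24, at the promoter, 381 bp upstream of the start).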

How the data were processed

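The 19 samples were placed in 6 groups from the genotype, doxycycline and antibody labels. Per the submitters' processing notes and the study's methods, the authors masked low-quality bases, aligned reads to mm9 with BWA 0.6.2, merged the replicates of each group and called peaks with MACS2 2.0.9 at a p-value cutoff of 1e-05. Per the file headers, a control of 167176362 tags served all 6 lists. The methods name published data as its source. Every fold enrichment rests on it, and its match to each group was not tested. For each peak the deposited lists give the pileup, a signal of fragments covering the summit, the fold enrichment, a ratio of pileup to local background, and the caller's −log10 p-value beside its −log10 q-value. YAP tissue had been fixed with DSG plus formaldehyde, and TEAD tissue without DSG, so YAP and TEAD heights are not compared. The lists hold no expression values, so neither the transgene nor liver markers could be checked.

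Here peaks were intersected with gene windows and promoters in Python 3.11.15 (numpy 2.4.6, pandas 2.3.3), tested on simulated peaks. Peaks of the TEAD lists that overlapped by at least 1 bp were joined into sites, and where several peaks of a list fell in a site the highest enrichment was used. Shares carry 95% Wilson intervals, and the median ratio an interval from order statistics. Chromosome lengths of 21 sequences were checked against the peaks and 0 were exceeded. The members and gene lists were chosen with earlier results of these data known. Named in full were all YAP peaks near members, the 8 members with the highest TEAD −log10 p-value at 7 d, members with a TEAD promoter peak in WT livers (Slc2a2, Ppargc1a, Srebf2, Elovl5, Elovl6, Acadm, Ehhadh and Dgat2), and the YAP peaks at 7 d near other pathway genes, 1 of which is not reported here. The remaining members are given by their strongest peak. Sequences were printed for YAP peaks and for the 4 strongest TEAD peaks without YAP. The wider windows at G6pc and Pcx and the marking of GGAAT were chosen after seeing the data.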

Additional observations from a re-analysis of the deposited data

How the results depend on the processing

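In all, 79 alternatives were run on 19 results, 18 of them chosen after seeing the data. Of the values, 66 stayed within 1.5 times of the count or inside the interval of the reported value, and 13 moved further. With a fold enrichment of at least 5, members with a TEAD peak in WT livers fell from 18 to 11, and those with a promoter peak from 8 to 5, when other coding genes stood at 11.3% and 4.51%. With the 5695 strongest peaks of each list, members with a TEAD peak were 19 at 3 d and 17 at 7 d, and with a promoter peak 6 and 6. Other coding genes then stood at 19.7%, 18.1%, 7.71% and 5.93%. Lists cut to equal length cannot show a growth in the number of called peaks, so no conclusion on induction is drawn from them. Of 34 member peaks left at 7 d, 58.8% overlapped a TEAD peak of WT livers, and of all 5695, 52.4%. Without the 10 kb flank, only 1 member had a YAP peak at 7 d, Pcx, 3.12% against 2.93% of other coding genes. With 20 kb, 6 members did, Slc2a2 being added, and 6.31% of others. The YAP promoter peak of Pcx was lost with 1000 bp on either side of a start, with main starts alone, and with summits in place of overlap (0 in each, below the 0.868%, 0.738% and 0.993% of others). The share with GGAATG, 30.3%, became 39.4% over whole peaks and 58.5% for GGAAT, against 43.5% and 62.7% of all TEAD peaks at 7 d.

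No paired analysis was possible because each group is 1 list made from its merged replicates, and for the same reason no replicate could be left out. A difference between lists therefore has no replicate error. A share over 32 genes is imprecise, and tag numbers, fragment length and fixation differed between lists.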
